A study of Mus musculus with 43 samples.

Results

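The genes described here are those of mitosis itself, the set of transcripts that a cell makes as it prepares for and carries out the separation of its chromosomes. There are 42 of them, chosen by name: kinases and cyclins of mitotic entry, the chromosomal passenger complex and the spindle checkpoint, centromere proteins, condensin and other proteins of chromosome structure, kinesins and spindle proteins, factors of mitotic exit, and factors of cytokinesis. The choice goes by the genes' names, and it was made with earlier results of these data known. Of the 42 genes, 41 could be followed among the 18184 genes of the array, each through its brightest probe set, and Ccnb1, the main mitotic cyclin B, was not analysed here because no probe set was annotated to it in the table used. The 41 genes had 93 probe sets in all, and 12 of them had a single one.

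Transcripts were measured in whole gonads of 43 mice, 1 Affymetrix array per mouse, in 15 groups, to follow gonad development with and without Foxl2, a transcription factor of the ovarian supporting cells. Testes were sampled at birth (P0) and at embryonic day 13 (E13). By the study's methods the P0 testes came from Wnt4-null mice, so that stage and the Wnt4 genotype cannot be told apart in the testis. Nor can sex and the Wnt4 genotype be told apart where P0 testes are set against wild-type ovaries. Ovaries comprised Foxl2-/- and Foxl2+/- control ovaries at E13, Wnt4 knockout and Wnt4+/- control ovaries at E15, Foxl2-/-, Foxl2+/- and wild-type ovaries at E16, and 6 groups at P0: KitWvWv Foxl2-/- double mutants, KitWvWv single mutants (Foxl2+/-), Wnt4-/-Foxl2-/- double mutants, Wnt4-/- single mutants (Foxl2+/-), Foxl2-/- mutants and wild-type controls. Groups held 3 arrays, except both E15 groups with 2, and the small number of arrays limits the precision. Methods and labels disagree on the E13 controls, which the methods call wild-type littermates. The E15 mice were of another mixed strain background than the rest. Wv is a Kit allele with reduced, not absent, function, and a group so labelled can keep some germ cells.

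Mitotic genes are transcribed mainly in the late phases of the cell cycle, so that in whole tissue their transcripts follow the number of dividing cells. In the fetal mouse ovary, germ cells divide until they enter meiosis and arrest as oocytes before birth, while in the fetal testis they stop dividing and rest until after birth; supporting and stromal cells divide in both organs. KIT, the receptor of stem cell factor, is needed for germ cells to survive and multiply. Several mitotic proteins are also stored or used in oocytes, which run the meiotic divisions with much of the same machinery. In bulk tissue, fewer cells of a type and less RNA per cell cannot be told apart.

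Signals are given as intensities divided by the common mean of the arrays, so that 1 is the average probe set. Foxl2 signals were at most 2.81 in Foxl2-/- and Wnt4-/-Foxl2-/- ovaries, against 5.21 or more in ovaries with an intact allele. They were 3.61 to 7.75 in KitWvWv Foxl2-/- ovaries, against 19.8 to 33.1 in KitWvWv ovaries, so that the double mutants lay below their own control but overlapped the lowest of the other ovaries with an intact allele. Wnt4 signals were at most 0.421 in Wnt4-null ovaries, against 0.590 or more in ovaries with an intact allele. Testes held less Foxl2 than any ovary (0.217 at most). The summed signal of 11 germ cell markers was 0.392 to 1.28 in KitWvWv Foxl2-/- and 1.69 to 8.80 in KitWvWv ovaries, against 48.3 to 80.2 in wild-type ovaries of P0. Summed signals of 11 erythroid markers, which mark blood carried in the tissue, were 26.4 to 37.3 in control ovaries and testes of E13, 31.4 to 36.3 in Foxl2-/- ovaries of E13 and at most 2.29 in every group of P0. They were 9.38 to 40.8 in Foxl2-/-, 3.01 to 41.3 in Foxl2+/- and 1.81 to 8.55 in wild-type ovaries of E16, and 3.80 to 11.6 in Wnt4-null ovaries, against 10.9 to 24.8 in controls, at E15. Replicate arrays correlated at 0.922 to 0.982, and no array was left out.

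Across the 15 groups the mitosis genes were highest in E13 testes and lowest in Kit mutant ovaries. The highest group mean lay in E13 testes for 26 of the 41 genes, and the lowest in 1 of the 2 Kit mutant groups for 38. The 3 others were Ncapd2, lowest in wild-type P0 ovaries, Kif22, lowest in E15 controls, and Pttg1, lowest in E16 ovaries. The 6 genes Birc5, Ncapg, Kif4, Prc1, Ube2c and Ect2 had their highest mean of all groups in wild-type ovaries at P0, when oocytes have left mitosis. Each gene was set to its own mean over the arrays, on the log2 scale, and the median over the 41 genes was taken on each array. This level was 0.06 to 0.29 in P0 testes, 0.78 to 1.01 in E13 testes, and 0.41 to 0.60, -0.33 to -0.07 and -0.11 to 0.19 in control or wild-type ovaries of E13, E16 and P0. It was -1.32 to -1.05 in KitWvWv Foxl2-/- and -1.52 to -1.19 in KitWvWv ovaries, with no overlap with any other group.

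**Figure D1:**
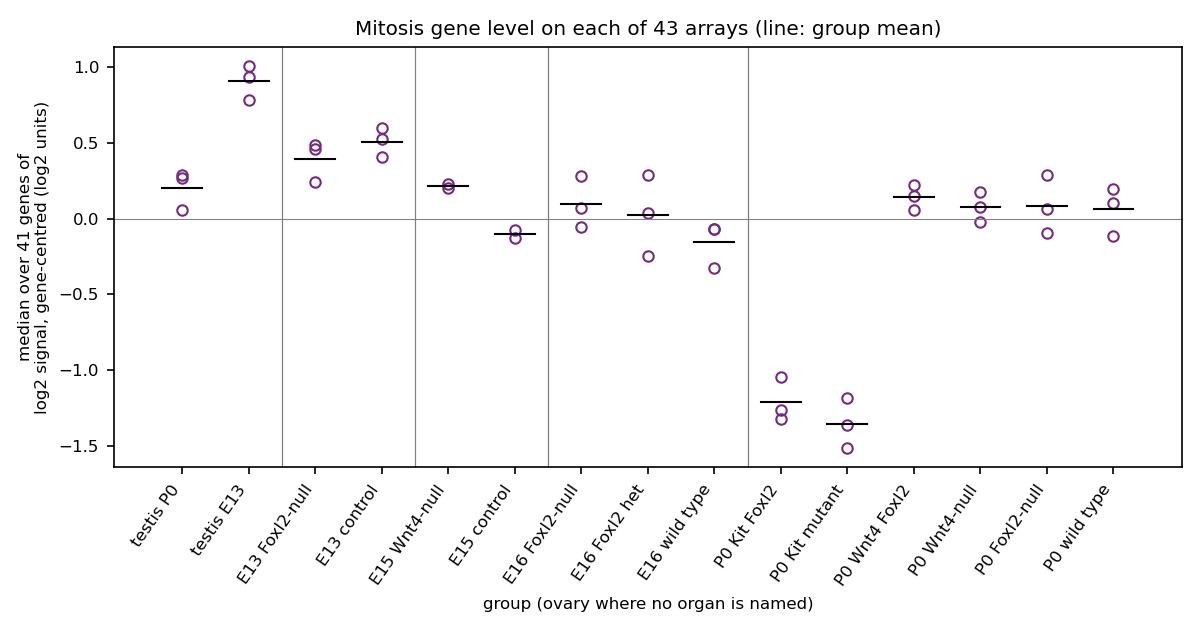
Median over 41 mitosis genes of the gene-centred log2 signal (vertical axis, log2 units) on each of 43 arrays (circles), by group, with the group mean as a line. The arrays of both Kit mutant groups lie between -1.52 and -1.05, and all others at -0.33 or higher.

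**Figure D2:**
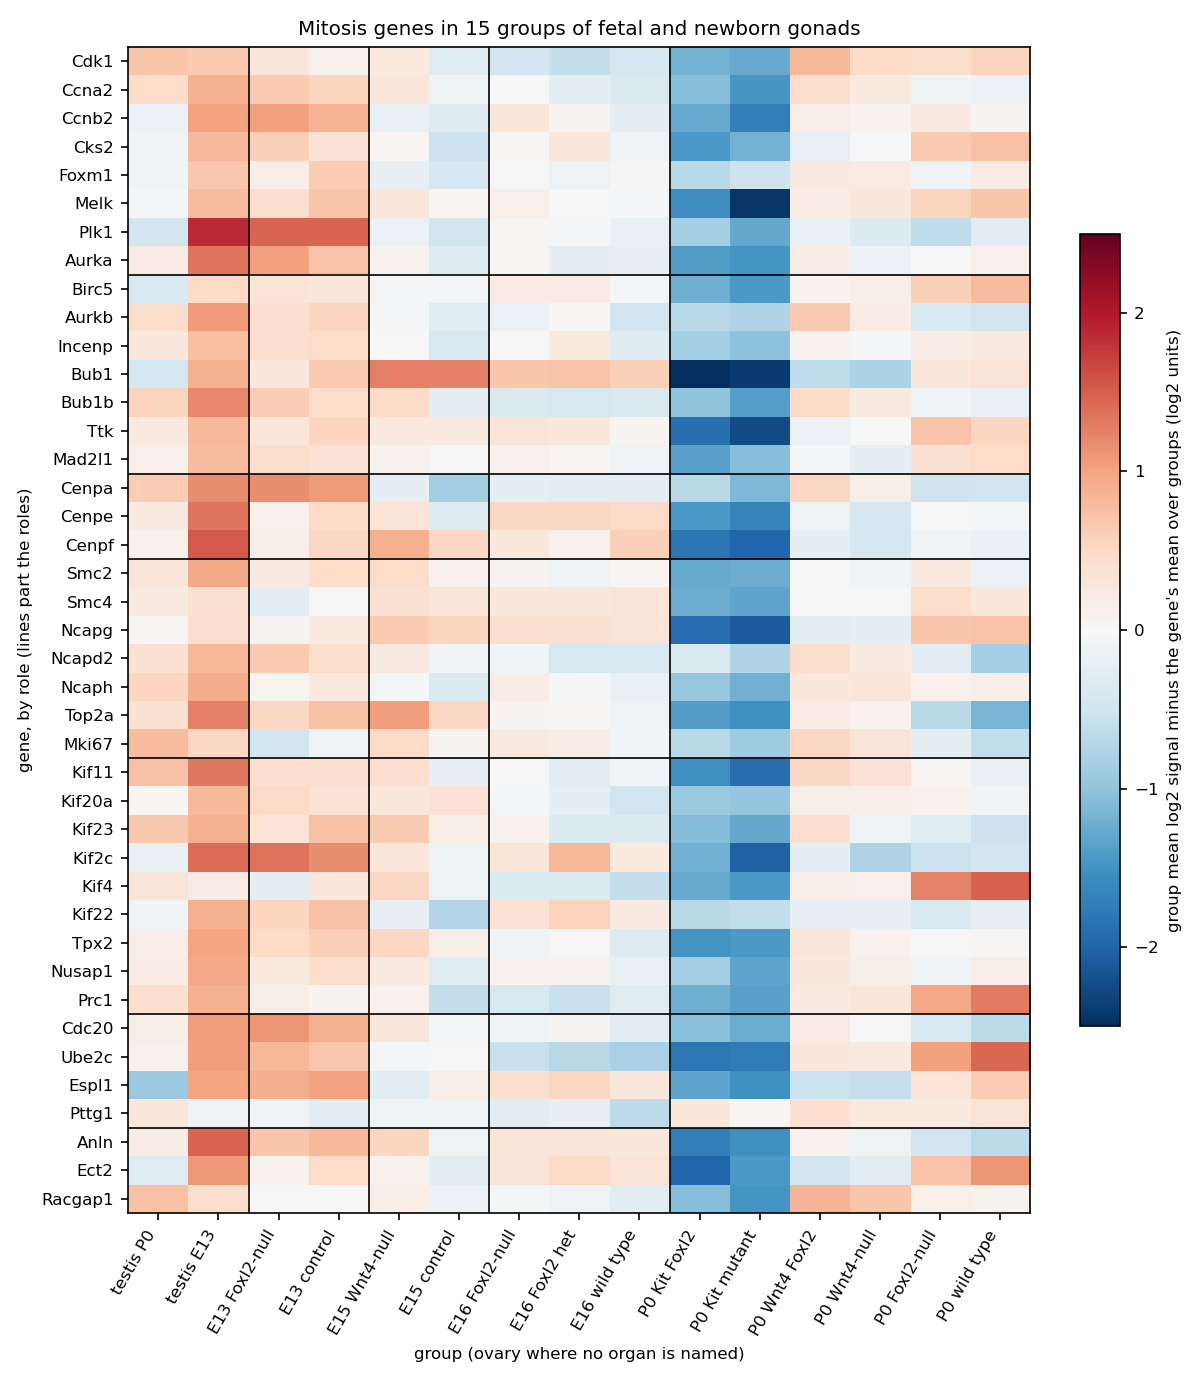
Group mean log2 signal of each of 41 mitosis genes minus that gene's mean over the 15 groups (colour, log2 units), with genes in rows by role and groups in columns. Nearly all genes are low in the 2 Kit mutant columns, and Ube2c, Kif4, Prc1 and Birc5 are high in wild-type ovaries of P0, while Top2a, Mki67, Cdc20 and Ncapd2 are low there.

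The first question is how the genes moved with stage in the ovary. At E16, 18 of 41 fell relative to E13 and none rose, where 3.93% of all genes fell and 5.07% rose (limma, Benjamini-Hochberg adjusted p under 0.05, the rule for every call below). The members' median change was -0.60 on the log2 scale, and that of all genes 0.16; after quantile normalization, with all genes at -0.02, 21 members fell with a median of -0.72, and 45.0% of all called genes were higher, against 56.3% without that step. The gene with the smallest adjusted p was Cenpa. Cenpa, the histone H3 variant of the centromere, had signals of 0.686, 0.699 and 0.542 at E16, against 1.35, 1.49 and 2.25 at E13 (log2 change -1.36 ± 0.18 SE, adjusted p = 5.73e-06). Ube2c, the ubiquitin-conjugating enzyme that works with the anaphase-promoting complex to degrade cyclin B, had 1.97, 1.82 and 1.65 at E16, against 4.41, 4.49 and 6.80 at E13 (log2 change -1.50 ± 0.21 SE, adjusted p = 1.31e-05). In both genes every E16 array lay below every E13 array. Cdc20, the activator of the same complex, fell by 1.18 on the log2 scale (adjusted p = 0.000673), Ccnb2, a B-type cyclin, by 1.09 (0.000748), Ccna2, cyclin A2, by 0.89 (0.00105) and Incenp, the scaffold of the passenger complex, by 0.77 (0.0015). Aurkb, the kinase of that complex, fell by 1.02 (0.00506), Tpx2, a spindle assembly factor, by 0.92 (0.00541), and the kinesins Kif20a and Kif23 of the central spindle by 0.83 (0.00596) and 1.08 (0.00604). Top2a, the topoisomerase that untangles sister chromatids, fell by 0.86 (0.00849).

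Mki67, Cdk1, Birc5 and Cks2 did not pass the test between these stages. Mki67, the proliferation antigen that coats mitotic chromosomes, had 8.77, 7.88 and 7.12 at E16, against 8.64, 7.88 and 6.42 at E13 (log2 change 0.06 ± 0.18 SE, adjusted p = 0.872), and its groups overlapped. Changes that did not pass the test were -0.54 ± 0.19 (SE) for Cdk1, the master kinase of mitotic entry, -0.33 ± 0.15 for Birc5, or survivin, of the passenger complex, -0.47 ± 0.19 for Cks2, a small subunit of the cyclin-dependent kinases, and 0.18 ± 0.36 for Cdkn1b, the cell cycle inhibitor p27. By role, 4 of 8 genes of entry, 3 of 4 of exit and 5 of 9 kinesins and spindle genes fell, and none of 3 of cytokinesis. The count depended on single arrays: it was 8 without the third E16 array and 11 without the third E13 array, and 8 of the 18 kept their call whichever array was left out. Tpx2, Kif23 and Top2a were among those that did not (adjusted p up to 0.0609, 0.0859 and 0.108 without the third E16 array). The called genes had 22 other probe sets, of which 13 had the same sign and 6 were also lower. Tpx2, Kif23, Top2a, Aurka, Bub1b and Nusap1 lost their call when all probe sets of a gene were averaged. The summed erythroid signal was lower at E16 as well, with the values given above, 5 of 17 meiosis genes, 4 of 13 oocyte and 3 of 10 stroma markers were higher, and 3 of 11 germ cell markers and 2 meiosis genes were lower; their part in the mitosis genes was not tested. By the labels the E13 controls carried a single intact Foxl2 allele and the E16 ovaries both. Stage and the Foxl2 genotype thus differ together in this comparison. Mitosis levels were -0.24 to 0.29 in Foxl2+/- ovaries of E16, against 0.41 to 0.60 in the Foxl2+/- ovaries of E13. That change was not tested.

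From E16 to P0 the genes moved in both directions. At P0, 10 members rose and 4 fell relative to E16, where 10.2% of all genes rose and 20.6% fell; the members' median change was 0.30 and that of all genes -0.27. After quantile normalization, which brings the median of all genes to -0.01, 13 members rose and 3 fell with a median of 0.38, and 55.4% of all called genes were higher, against 33.1% without that step. Ube2c had 6.42, 10.9 and 9.47 in wild-type ovaries of P0, against 1.97, 1.82 and 1.65 at E16, so that every P0 array exceeded every E16 array (log2 change 2.26 ± 0.21 SE, adjusted p = 2.01e-09). Prc1, which bundles the microtubules of the central spindle, had 2.08, 3.90 and 3.31 at P0, against 0.858, 1.19 and 0.934 at E16 (log2 change 1.60 ± 0.19 SE, adjusted p = 1.65e-07). Kif4, the chromokinesin that carries PRC1 along microtubules, had 1.55, 2.46 and 1.95 at P0, against 0.561, 0.439 and 0.399 at E16 (log2 change 2.06 ± 0.28 SE, adjusted p = 1.47e-06). The arrays of these 3 genes did not overlap between the stages. Birc5 had 8.90, 13.5 and 11.7 at P0, against 6.80, 6.99 and 5.17 at E16 (log2 change 0.84 ± 0.15 SE, adjusted p = 0.000113), and Pttg1, or securin, the inhibitor of separase, had 7.05, 13.6 and 11.8 at P0, against 5.04, 6.16 and 4.53 at E16 (log2 change 0.9999 ± 0.18 SE, adjusted p = 0.000115). Cdk1 had 2.18, 3.58 and 3.39 at P0, against 1.54, 1.77 and 1.21 at E16 (log2 change 0.998 ± 0.19 SE, adjusted p = 0.000167). The lowest P0 array of Cdk1, Birc5 and Pttg1 was in each case the first, and it still exceeded every E16 array. Cks2 rose by 0.83 (adjusted p = 0.00127), the checkpoint protein gene Mad2l1 by 0.56 (0.0108), Incenp by 0.53 (0.0109) and Ect2, the exchange factor that starts the cleavage furrow, by 0.76 (0.0369).

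The 4 genes that fell over the same interval act on chromosomes, the kinetochore and the cell cortex. Top2a had 1.37, 0.921 and 1.14 in ovaries of P0, against 3.59, 1.97 and 1.72 at E16 (log2 change -1.02 ± 0.21 SE, adjusted p = 0.000499). Mki67 had 6.13, 4.62 and 5.60 at P0, against 8.77, 7.88 and 7.12 at E16 (log2 change -0.54 ± 0.18 SE, adjusted p = 0.0187). All P0 arrays of both genes lay below all E16 arrays. Cenpf, a kinetochore protein gene, fell by 0.77 (0.0174) and Anln, anillin of the contractile ring, by 0.93 (0.0229). Cdkn1b changed by 0.29 ± 0.36 (SE) and did not pass the test. Without the second P0 array 9 members were called, and 8 of the 14 kept their call whichever array was left out. Mki67 was one of the 6 that did not (adjusted p up to 0.11, without that array), with Incenp (0.137), Mad2l1 (0.111) and Ect2 (0.325) under the same omission, Cenpf (0.105) without the first and Anln (0.09) without the second E16 array. A second, dim probe set of Incenp (mean signal 0.0985) went the other way (-1.28, adjusted p = 0.00151). Over this interval 10 of 13 oocyte markers rose and none fell, and 8 of 17 meiosis genes fell; their part in the changes of the mitosis genes was not tested.

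Over the whole interval from E13 to P0, 5 members rose and 16 fell in the ovary, where 9.91% of all genes rose and 12.0% fell, and the members' median was -0.44, against -0.13 for all genes. Top2a (log2 change -1.88 ± 0.21 SE, adjusted p = 3.4e-08) and Cenpa (log2 change -1.56 ± 0.18 SE, adjusted p = 6.78e-08) fell with the smallest adjusted p, followed by Cdc20 (-1.55 ± 0.22), the condensin gene Ncapd2 (-1.29 ± 0.23), Kif23 (-1.26 ± 0.26), Kif2c, a microtubule-depolymerising kinesin gene (-1.63 ± 0.33), Kif22 (-0.94 ± 0.19), Anln (-1.47 ± 0.31), Aurkb (-0.997 ± 0.24) and Plk1, polo-like kinase 1 (-1.72 ± 0.41). Mki67 fell by 0.49 (adjusted p = 0.047). Prc1 (log2 change 1.24 ± 0.19 SE, adjusted p = 8.94e-06) and Kif4 (log2 change 1.19 ± 0.28 SE, adjusted p = 0.00181) rose, as did Ube2c (0.76 ± 0.21), Pttg1 (0.62 ± 0.18) and Birc5 (0.50 ± 0.15). Ube2c thus had a low at E16, with mean signals of 5.23 ± 1.36, 1.82 ± 0.159 and 8.92 ± 2.27 (SD, n = 3 each) at E13, E16 and P0, while Top2a had 4.22 ± 0.806, 2.43 ± 1.02 and 1.14 ± 0.222. Cdk1 (0.46 ± 0.19), Cks2 (0.36 ± 0.19) and Cdkn1b (0.47 ± 0.36) did not pass the test. Of the 21 calls, 13 held whichever array was left out; the rises of Ube2c (adjusted p up to 0.0764), Birc5 (0.137) and Pttg1 (0.142) and the fall of Mki67 (0.211) did not hold without the second P0 array. The called genes had 28 other probe sets, of which 27 had the same sign. Over this interval 12 of 13 oocyte, 5 of 10 stroma and 4 of 10 Sertoli cell markers rose and 1 Sertoli marker fell, 2 of 17 meiosis genes rose and 6 fell, and summed erythroid signals were 0.735 to 2.29 at P0, against 26.4 to 31.6 at E13; their part in the mitosis genes was not tested. Stage and the Foxl2 genotype differ together in this comparison too. Among Foxl2-/- ovaries the mitosis level was 0.24 to 0.49 at E13 and -0.09 to 0.29 at P0, a change that was not tested.

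**Figure D3:**
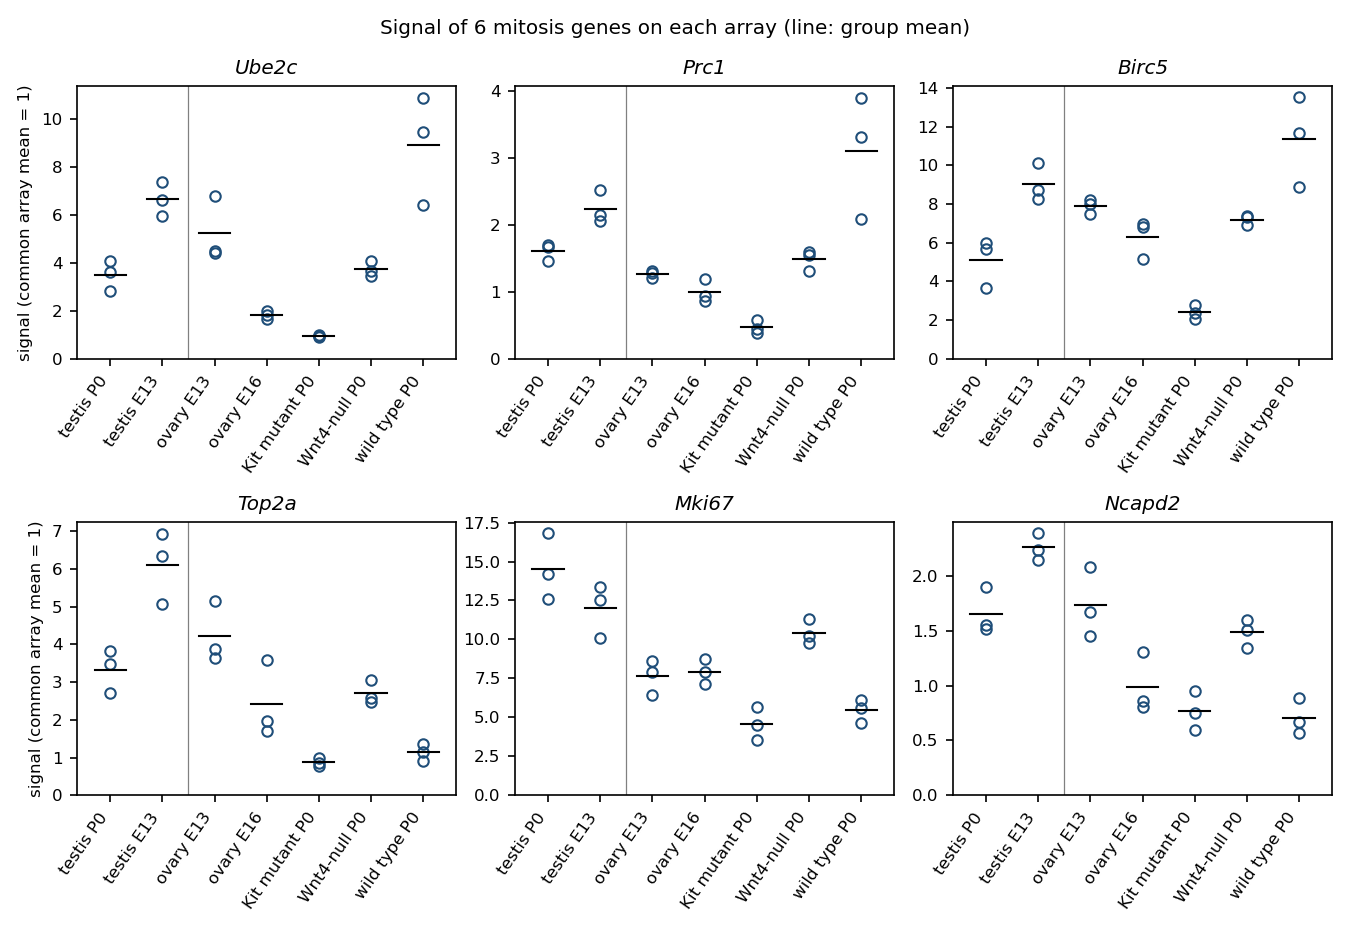
Signal of 6 mitosis genes (vertical axes, linear, common array mean = 1) on each array (circles) with group means (lines), in testes at P0 and E13, in ovaries at E13 and E16 and in Kit mutant, Wnt4-null and wild-type ovaries at P0. Ube2c, Prc1 and Birc5 are highest in wild-type P0 ovaries and lowest in Kit mutants; Top2a, Mki67 and Ncapd2 in wild-type P0 ovaries lie near the Kit mutants and below the Wnt4-null ovaries.

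In the testis all called changes went in a single direction. At P0, 25 of 41 fell relative to E13 and none rose, where 13.8% of all genes fell and 9.07% rose; the members' median was -0.73 and that of all genes -0.02. Espl1, or separase, the protease that cuts cohesin at anaphase, had 0.598, 0.635 and 0.699 in P0 testes, against 2.45, 2.36 and 2.48 at E13 (log2 change -1.90 ± 0.21 SE, adjusted p = 2.64e-08). Plk1 had 0.235, 0.272 and 0.394 at P0, against 1.38, 1.29 and 1.97 at E13 (log2 change -2.33 ± 0.41 SE, adjusted p = 7.88e-05), and Cenpf had 1.73, 2.19 and 2.40, against 5.40, 6.61 and 5.02 (log2 change -1.43 ± 0.25 SE, adjusted p = 5.04e-05). The 2 stages did not overlap in any of these genes. Birc5 (-0.85 ± 0.15), Ccnb2 (-1.14 ± 0.21), the centromere kinesin gene Cenpe (-1.11 ± 0.22), Ect2 (-1.41 ± 0.28), the checkpoint kinase gene Bub1 (-1.32 ± 0.27), Kif22 (-0.95 ± 0.19) and Cks2 (-0.90 ± 0.19) followed by adjusted p, at 9.14e-05 to 0.000618. Top2a fell by 0.88 (0.0025).

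Mki67 and Cdk1 did not pass the test in the testis. Mki67 had 12.6, 16.8 and 14.2 at P0, against 10.1, 12.5 and 13.3 at E13 (log2 change 0.28 ± 0.18 SE, adjusted p = 0.299), and Cdk1 had 2.73, 3.67 and 3.52, against 2.80, 3.42 and 3.43 (log2 change 0.03 ± 0.19 SE, adjusted p = 0.932), both with overlapping groups. Cdkn1b changed by 0.01 ± 0.36 (SE). All 3 centromere genes, 6 of 7 genes of the passenger complex and checkpoint, and 3 of 4 of exit fell, against 2 of 7 of chromosome structure. Leaving out single arrays, 20 of the 25 kept their call throughout; Incenp, Bub1b, Ttk, Cenpa and Smc2 did not. Over the same interval 7 of 11 germ cell markers fell, 7 of 10 stroma markers rose and summed erythroid markers were 0.906 to 1.20 at P0, against 29.6 to 37.3 at E13. Their part in the fall of the mitosis genes was not tested.

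Sexes were compared within each stage. At E13, 7 members were higher in testes than in ovaries and none lower, where 3.30% of all genes were higher and 4.84% lower, and the members' median was 0.39, against -0.04 for all genes; 39 of the 41 changes were above 0. Prc1 had 2.06, 2.53 and 2.15 in testes, against 1.28, 1.31 and 1.21 in ovaries (log2 change 0.82 ± 0.19 SE, adjusted p = 0.00411). Kif11, the kinesin that pushes spindle poles apart, had 4.25, 5.56 and 4.78 in testes, against 2.26, 2.90 and 2.53 in ovaries (log2 change 0.92 ± 0.22 SE, adjusted p = 0.00585). Cenpf had 5.40, 6.61 and 5.02 in testes, against 2.66, 2.82 and 2.87 in ovaries (log2 change 1.02 ± 0.25 SE, adjusted p = 0.00646). No array of an ovary reached the testes in these 3 genes. The others were Cenpe (0.85 ± 0.22), the condensin gene Ncaph (0.68 ± 0.18), Mki67 (0.65 ± 0.18) and Bub1b, of the spindle checkpoint (0.75 ± 0.22). Cdk1 (0.56 ± 0.19), Top2a (0.54 ± 0.21), Cks2 (0.43 ± 0.19) and Birc5 (0.19 ± 0.15) did not pass the test, and Cdkn1b was lower in testes (log2 change -1.31 ± 0.36 SE, adjusted p = 0.0179). Only the call of Prc1 held whichever array was left out; without the second E13 testis array 2 members were called (Kif11 at an adjusted p of 0.0511, Cenpf 0.0557 and Ncaph 0.107), Mki67 reached 0.147 and Cenpe 0.0683 without the third ovary array, and Bub1b 0.15 without the third testis array. Of 17 meiosis genes 7 were lower in testes, and of 10 Sertoli cell markers 7 were higher; their part in the mitosis genes was not tested.

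At P0 the sexes differed in both directions, with 12 members higher in testes and 9 lower, where 12.2% of all genes were higher and 16.8% lower. By the methods these testes were Wnt4-null, and the ovaries were wild type, so sex and the Wnt4 genotype differ together here. The members' median was 0.13 and that of all genes 0.07. Higher in testes by adjusted p were Mki67, with 12.6, 16.8 and 14.2 in testes, against 6.13, 4.62 and 5.60 in ovaries (log2 change 1.41 ± 0.18 SE, adjusted p = 1.19e-07), and Top2a, with 2.71, 3.47 and 3.83 in testes, against 1.37, 0.921 and 1.14 in ovaries (log2 change 1.54 ± 0.21 SE, adjusted p = 7.11e-07). Cenpa (1.13 ± 0.18), Ncapd2 (1.23 ± 0.23), Kif23 (1.20 ± 0.26), Kif11 (0.91 ± 0.22), Aurkb (0.90 ± 0.24), Cdc20 (0.83 ± 0.22), Ccna2 (0.61 ± 0.17) and Bub1b (0.74 ± 0.22) were also higher. Lower in testes were Birc5, with 3.66, 5.98 and 5.67 in testes, against 8.90, 13.5 and 11.7 in ovaries (log2 change -1.17 ± 0.15 SE, adjusted p = 3.12e-07), and Espl1, with 0.598, 0.635 and 0.699 in testes, against 1.89, 1.68 and 2.08 in ovaries (log2 change -1.53 ± 0.21 SE, adjusted p = 7.42e-07). Groups did not overlap in these 4 genes. Wnt4-null ovaries of P0 had 9.79 to 11.3 for Mki67, 2.48 to 3.05 for Top2a, 6.93 to 7.37 for Birc5 and 0.605 to 1.04 for Espl1. Testes were not tested against them. Ube2c (-1.33 ± 0.21), Ect2 (-1.41 ± 0.28), Prc1 (-0.89 ± 0.19), Cks2 (-0.82 ± 0.19), Kif4 (-1.15 ± 0.28), Ncapg (-0.69 ± 0.23) and Bub1 (-0.76 ± 0.27) were lower too. Cdk1 changed by 0.14 ± 0.19 (SE) and did not pass the test, and Cdkn1b was lower (-1.77 ± 0.36). Of the 21 calls, 15 held whichever array was left out, and the other 6 were Ccna2 (adjusted p up to 0.0618) and Ncapg (0.112) without the second ovary array, Bub1b (0.087) without the first ovary array, and Bub1 (0.181), Racgap1 (0.204) and Anln (0.119) without the first, the second and the third testis array. Of 13 oocyte markers 12 were lower in testes, and 8 of 10 stroma, 8 of 10 Sertoli and 5 of 5 Leydig cell markers were higher in testes; their part in the mitosis genes was not tested.

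The change from E13 to P0 was then compared between the sexes in a single test, the stage change in testis minus that in ovary. It was positive in 2 members and negative in 6, where 3.28% of all genes were positive and 5.54% negative. The P0 testes were Wnt4-null by the methods, and by the labels the ovary change runs from Foxl2+/- to wild-type ovaries. Sex is not separated from these genotypes in this test. Ect2 (log2 change -2.04 ± 0.39 SE, adjusted p = 0.000718), Prc1 (log2 change -1.71 ± 0.27 SE, adjusted p = 4.77e-05), Ube2c (log2 change -1.70 ± 0.30 SE, adjusted p = 0.000257), Espl1 (-1.51 ± 0.30), Birc5 (-1.35 ± 0.22) and Cks2 (-1.25 ± 0.27) fell in testes relative to their course in ovaries. Cenpa (1.03 ± 0.26) and Top2a (1.002 ± 0.30) fell less in testes than in ovaries; Top2a did not pass without the second P0 ovary array (adjusted p = 0.119). Ube2c fell from stage to stage in testes (-0.93 ± 0.21) and rose in ovaries (0.76 ± 0.21). The differences for Mki67 (0.76 ± 0.25), Cdk1 (-0.43 ± 0.26) and Cdkn1b (-0.46 ± 0.50) did not pass the test.

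**Figure D4:**
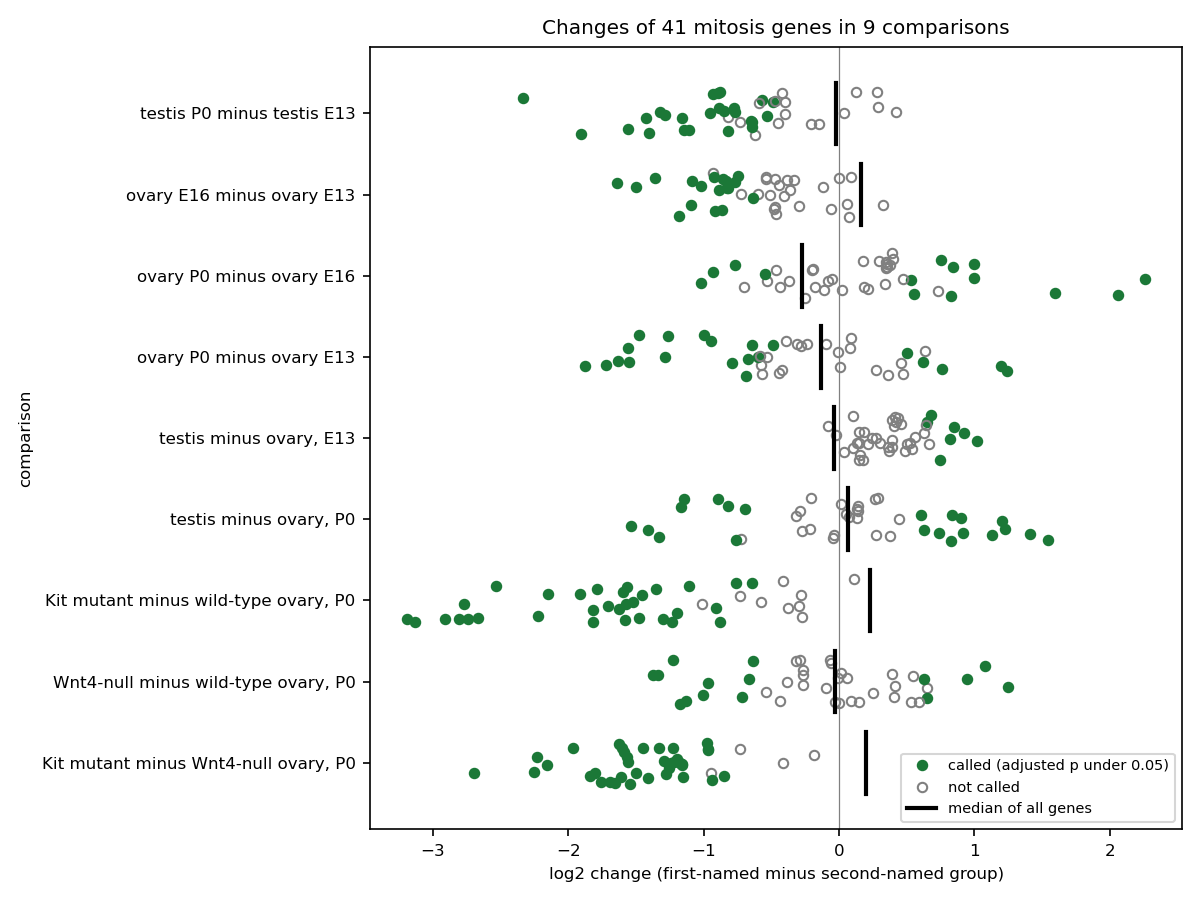
Log2 change (horizontal axis) of 41 mitosis genes (points, filled where called at an adjusted p under 0.05) in 9 comparisons, with the median of all 18184 genes as a black line. In Kit mutants against wild-type and against Wnt4-null ovaries 32 and 37 genes were lower and none higher. Ovaries from E16 to P0 and from E13 to P0, the sexes at P0 and Wnt4-null against wild-type ovaries have called genes on both sides.

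Kit mutant ovaries, in which few germ cells survive, were compared to see how much of the ovary's mitotic transcript pool goes with the germ cells. At P0, 32 of 41 members were lower in KitWvWv than in wild-type ovaries and none higher, where 13.3% of all genes were lower and 17.3% higher. The KitWvWv ovaries carried a single intact Foxl2 allele and the wild-type ovaries both, so the Kit and Foxl2 genotypes differ together in this comparison. Among Foxl2-/- ovaries of P0, summed signals of the 41 genes were 43.0 to 49.1 with KitWvWv and 94.4 to 120 with intact Kit. That pair was not tested. The members' median was -1.52, against 0.23 for all genes; after quantile normalization, with all genes at 0.05, it was -1.56 with 35 lower, and 43.9% of all called genes were higher, against 56.5% without that step. Ube2c had 0.959, 0.896 and 0.985 in KitWvWv ovaries, against 6.42, 10.9 and 9.47 in wild-type ovaries (log2 change -3.19 ± 0.21 SE, adjusted p = 1.05e-12). Birc5 had 2.08, 2.37 and 2.79 in KitWvWv ovaries, against 8.90, 13.5 and 11.7 in wild-type ovaries (log2 change -2.22 ± 0.15 SE, adjusted p = 1.05e-12). Prc1 had 0.390, 0.574 and 0.447 in KitWvWv ovaries, against 2.08, 3.90 and 3.31 in wild-type ovaries (log2 change -2.66 ± 0.19 SE, adjusted p = 2.14e-12). The groups lay far apart in each of these 3 genes. Ttk, or MPS1, the kinase that starts the spindle checkpoint, had 0.0960, 0.146 and 0.181 in KitWvWv ovaries, against 0.902, 1.08 and 0.991 in wild-type ovaries (log2 change -2.77 ± 0.20 SE, adjusted p = 2.8e-12). Ncapg, of condensin, had 0.544, 0.832 and 0.769 in KitWvWv ovaries, against 3.81, 5.80 and 5.63 in wild-type ovaries (log2 change -2.81 ± 0.23 SE, adjusted p = 4.64e-11). Melk, a kinase of dividing and embryonic cells, had 0.0217, 0.130 and 0.108 in KitWvWv ovaries, against 0.608, 0.858 and 0.648 in wild-type ovaries (log2 change -3.13 ± 0.31 SE, adjusted p = 2.06e-09), with the first mutant array well below the other two.

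The falls ran through every role. Of the 8 genes of mitotic entry 6 fell, among them Cdk1, with 0.769, 0.788 and 0.979 in KitWvWv ovaries, against 2.18, 3.58 and 3.39 in wild-type ovaries (log2 change -1.82 ± 0.19 SE, adjusted p = 5.26e-09), and Cks2 (-1.91 ± 0.19). Of 7 passenger complex and checkpoint genes 6 fell, among them Bub1, with 0.139, 0.155 and 0.146 in KitWvWv ovaries, against 1.06, 1.26 and 0.826 in wild-type ovaries (log2 change -2.74 ± 0.27 SE, adjusted p = 2.15e-09). All 3 centromere genes fell (-1.82 to -0.64), as did all 3 of cytokinesis (-2.53 to -0.88) and 8 of 9 kinesin and spindle genes (-2.91 to -0.42 over the 9), with Kif4 at -2.91 ± 0.28. Of 4 exit genes Ube2c and Espl1 (-2.15 ± 0.21) fell, and of 7 chromosome structure genes 4. The genes lower in KitWvWv ovaries that are not described elsewhere in this comparison were, by log2 change, Ect2 (-2.53), Cenpf (-1.82), Ccnb2 (-1.79), Kif11 (-1.70), Cenpe (-1.63), Aurka (-1.60), Smc4 (-1.58), Kif2c (-1.57), Racgap1 (-1.56), Mad2l1 (-1.52), Nusap1 (-1.48), Tpx2 (-1.45), Ncaph (-1.35), Ccna2 (-1.30), Incenp (-1.23), Bub1b (-1.20), Smc2 (-1.11), Kif20a (-0.91) and Cenpa (-0.64). Of the 32 calls, 30 held whichever array was left out, and the other two were Kif23 (adjusted p up to 0.115, without the third wild-type array) and Anln (0.156, without the first Kit mutant array). The called genes had 39 other probe sets, of which 32 had the same sign and 26 were also lower. A dim second probe set of Aurka (mean signal 0.0940) and one of Incenp (0.0985) were higher instead (1.01, adjusted p = 0.0145, and 1.05, adjusted p = 0.00792). The brightest probe sets of Incenp, Kif2c, Kif22, Cdc20, Aurkb, Smc2, Prc1 and Pttg1 are of types that can bind related transcripts.

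The other 9 genes did not pass the test in Kit mutants. Mki67 had 5.65, 4.48 and 3.55 in KitWvWv ovaries, against 6.13, 4.62 and 5.60 in wild-type ovaries (log2 change -0.27 ± 0.18 SE, adjusted p = 0.254). Top2a had 0.845, 0.998 and 0.775 in KitWvWv ovaries, against 1.37, 0.921 and 1.14 in wild-type ovaries (log2 change -0.37 ± 0.21 SE, adjusted p = 0.189). Ncapd2 had 0.953, 0.750 and 0.595 in KitWvWv ovaries, against 0.667, 0.569 and 0.890 in wild-type ovaries (log2 change 0.11 ± 0.23 SE, adjusted p = 0.758). The groups overlapped in these 3 genes. Pttg1 had 7.69, 9.15 and 8.96 in KitWvWv ovaries, against 7.05, 13.6 and 11.8 in wild-type ovaries (log2 change -0.28 ± 0.18 SE, adjusted p = 0.258), with the wild-type arrays spread on both sides of the mutants. The others were Foxm1, the transcription factor that drives many mitotic genes (log2 change -0.73 ± 0.28 SE, adjusted p = 0.0518), Cdc20 (log2 change -0.57 ± 0.22 SE, adjusted p = 0.0534), Plk1 (log2 change -1.01 ± 0.41 SE, adjusted p = 0.0663), Kif22 (log2 change -0.42 ± 0.19 SE, adjusted p = 0.111) and Aurkb (log2 change -0.29 ± 0.24 SE, adjusted p = 0.367). Cdkn1b changed by 0.72 ± 0.36 (SE; adjusted p = 0.131).

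On the linear scale, the share of the wild-type mean signal that was missing in KitWvWv ovaries had a median of 65.7% over the 41 genes (58.8% to 70.7% by mutant array), and it ranged from -8.09% (a gain) for Ncapd2 to 89.4% for Ube2c. It was above 0 in 40 genes and above 50% in 29. Ube2c, Melk (87.7%), Kif4 (86.6%), Bub1 (86.0%), Ncapg (85.9%), Ttk (85.8%), Prc1 (84.8%) and Ect2 (84.1%) lost the most, and Mki67 (16.3%), Aurkb (18.5%), Pttg1 (20.4%), Kif22 (22.3%) and Top2a (23.6%) the least after Ncapd2. Measured in the same way, 11 germ cell markers lost a median of 94.4%, 13 oocyte markers 90.4%, 17 meiosis genes 80.0% and all genes gained 19.3%. Mean signals were higher in KitWvWv than in wild-type ovaries for the oocyte marker Zp3 (6.52 against 2.80), the meiosis gene Rec8 (1.92 against 0.423) and the germ cell marker Dnd1. Summed oocyte marker signals were 2.09, 3.21 and 24.5 on the KitWvWv arrays, against 29.7 to 75.9 in wild-type ovaries. Zp3 is part of these sums, so its higher mean in KitWvWv ovaries rests on the third array. In KitWvWv Foxl2-/- ovaries, set against the same wild-type arrays, the mitosis genes lost a median of 56.0% and the germ cell markers 98.5%. Averaging all probe sets of a gene gave 50.8% in KitWvWv ovaries. Every array is scaled to the same mean, so a share is relative to the other transcripts of the tissue and not to its size.

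Most markers of other cell types were not lower in KitWvWv ovaries. None of 11 erythroid, 10 stroma, 8 endothelial, 10 macrophage and 7 fetal supporting-cell markers was lower. Of these, 2 stroma, 3 endothelial, 1 macrophage and 3 supporting-cell markers were higher, where 17.3% of all genes were higher and 13.3% lower. The supporting-cell list includes Foxl2 itself. Of 5 Leydig cell markers 1 was lower. The share of signal lost by 10 Sertoli cell markers had a median of -33.4% (a gain). It ranged from -195% to 59.3% and was above 0 in 3 of them. Of the germ cell markers 10 of 11 were lower, and Dnd1, the exception, had 0.0185, 0.0507 and 0.0689 in KitWvWv ovaries, against 0.0192, 0.0448 and 0.0629 in wild-type ovaries. Summed signals of the 41 mitosis genes were 40.7 to 43.9 in KitWvWv ovaries, against 94.0 to 123 in wild-type ovaries. Whether the missing transcripts came from germ cells or from other cells that depend on them was not tested.

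**Figure D5:**
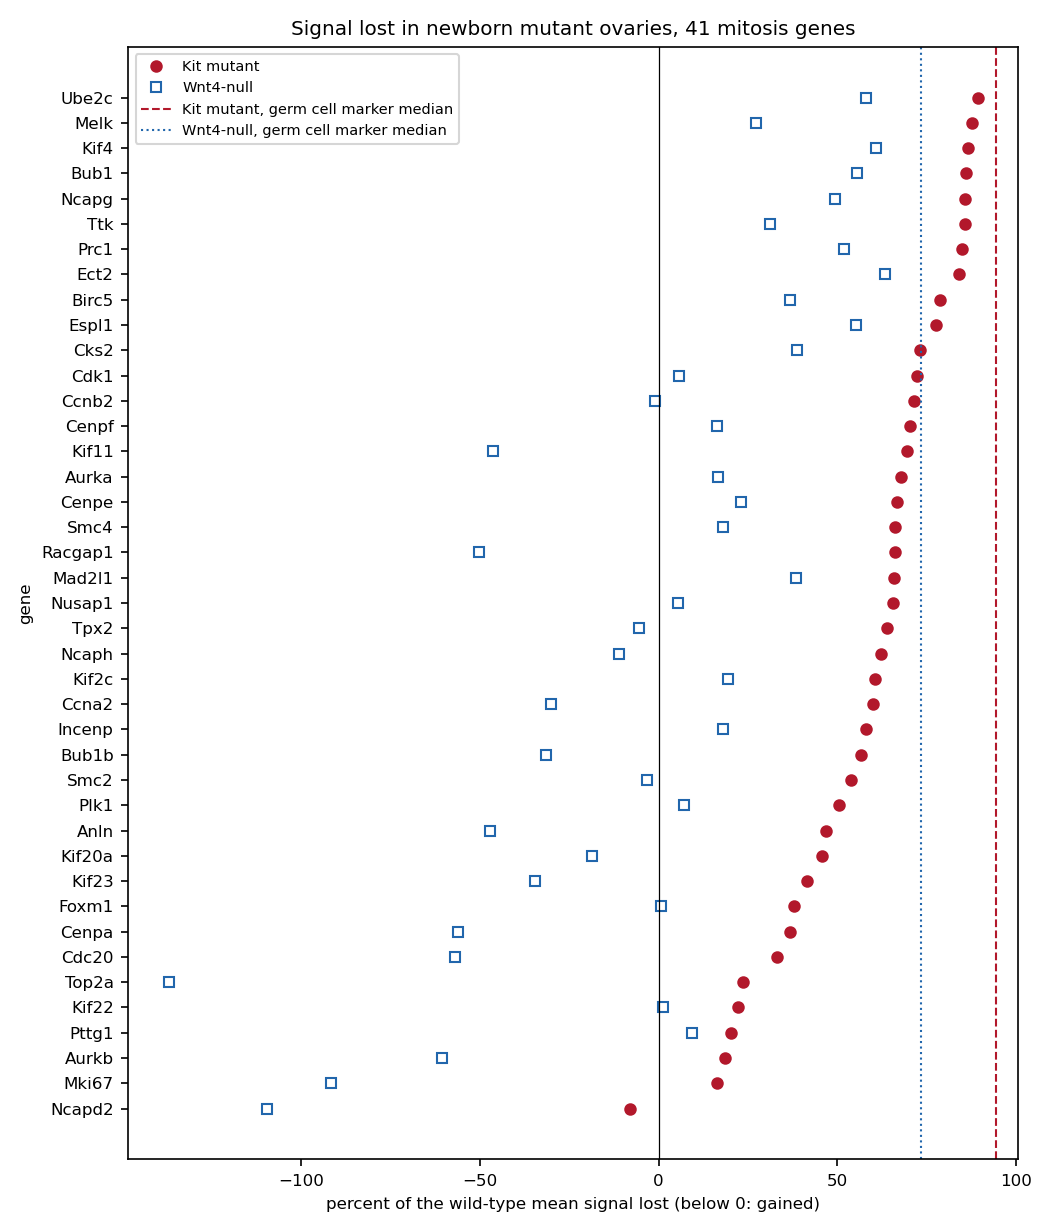
Percent of the wild-type mean signal lost at P0 (horizontal axis, below 0 a gain) for 41 mitosis genes in Kit mutant (filled circles) and Wnt4-null ovaries (open squares), both against the same wild-type arrays, with the median of 11 germ cell markers as a dashed line for Kit mutants (94.4%) and a dotted line for Wnt4-null ovaries (73.5%). All circles lie left of the dashed line, from -8.09% for Ncapd2 to 89.4% for Ube2c, and the squares reach from -137% for Top2a to 63.4% for Ect2.

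The promoters of mitotic genes are known for pairs of CCAAT boxes, bound by NF-Y, and for the cell cycle genes homology region, TTTGAA. Through this region the DREAM complex holds these genes silent outside late cell cycle phases. RefSeq promoters (build GRCm38.p6) were found for 35 of the 42 genes, and both letter strings were searched on both strands in the 250 bases before the start; each string was counted without regard to any overlap with the other. TTTGAA was present in 15 of the 35 genes (42.9%), against 15.99% of all 32841 promoters, CCAAT in 27 (77.1%), against 33.9%, and both in 14 (40.0%), against 5.55%. The match is one of letters and shows no binding. Among genes with a promoter and a probe set, TTTGAA was held by 10 of the 27 that were lower in KitWvWv ovaries and by 5 of the 7 that were not called there. The 4 sequences below were chosen to show this. Ube2c and Cdk1 hold both strings and were lower in KitWvWv ovaries. Birc5 was as clearly lower and holds neither in these 250 bases, while Cdc20 holds both and was not called. Bases after the start were not searched. Capitals mark TTTGAA and CCAAT or their reverse complements.
Ube2c, chr2:164769679-164769928, plus strand: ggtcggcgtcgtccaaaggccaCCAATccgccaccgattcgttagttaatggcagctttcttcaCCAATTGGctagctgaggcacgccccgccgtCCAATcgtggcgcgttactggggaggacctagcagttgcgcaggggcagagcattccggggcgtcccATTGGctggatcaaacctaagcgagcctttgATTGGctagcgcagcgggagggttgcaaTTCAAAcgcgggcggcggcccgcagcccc
Cdk1, chr10:69352913-69353162, minus strand: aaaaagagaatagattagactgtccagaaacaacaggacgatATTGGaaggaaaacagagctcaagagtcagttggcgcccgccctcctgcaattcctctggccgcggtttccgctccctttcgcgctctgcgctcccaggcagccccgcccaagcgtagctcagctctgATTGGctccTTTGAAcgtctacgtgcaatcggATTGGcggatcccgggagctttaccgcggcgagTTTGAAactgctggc
Birc5, chr11:117848987-117849236, plus strand: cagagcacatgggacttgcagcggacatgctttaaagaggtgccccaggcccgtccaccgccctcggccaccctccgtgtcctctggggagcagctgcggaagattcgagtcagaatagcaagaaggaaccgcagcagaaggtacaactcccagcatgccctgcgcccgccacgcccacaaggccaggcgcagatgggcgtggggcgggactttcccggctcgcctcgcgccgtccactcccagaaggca
Cdc20, chr4:118437344-118437593, minus strand: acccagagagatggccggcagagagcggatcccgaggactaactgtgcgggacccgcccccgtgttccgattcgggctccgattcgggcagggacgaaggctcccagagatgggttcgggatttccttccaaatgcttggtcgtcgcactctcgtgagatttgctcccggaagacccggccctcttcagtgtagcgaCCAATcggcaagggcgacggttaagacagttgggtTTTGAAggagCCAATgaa

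In Wnt4-null ovaries of P0, where 8 of 11 germ cell markers were lower, the mitosis genes moved both ways. Set against the same wild-type arrays as the Kit mutants, 5 members were higher and 10 lower in Wnt4-null ovaries, where 7.07% of all genes were higher and 9.86% lower, and the members' median was -0.06, against -0.03 for all genes. The Wnt4-null ovaries, too, were Foxl2+/-, and the Wnt4 and Foxl2 genotypes differ together in this comparison. Top2a had 3.02, 2.76 and 2.95 in Wnt4-/-Foxl2-/- ovaries, against 1.39, 1.59 and 1.74 in Foxl2-/- ovaries of P0. Ube2c had 3.30, 4.77 and 3.58, against 8.01, 5.07 and 6.93. That pair of groups was not tested. Top2a had 3.05, 2.48 and 2.59 in Wnt4-null ovaries, against 1.37, 0.921 and 1.14 in wild-type ovaries (log2 change 1.25 ± 0.21 SE, adjusted p = 5.42e-05). Mki67 had 11.3, 10.2 and 9.79 in Wnt4-null ovaries, against 6.13, 4.62 and 5.60 in wild-type ovaries (log2 change 0.94 ± 0.18 SE, adjusted p = 0.000199). Ncapd2 had 1.60, 1.51 and 1.35 in Wnt4-null ovaries, against 0.667, 0.569 and 0.890 in wild-type ovaries (log2 change 1.08 ± 0.23 SE, adjusted p = 0.00121). These 3 genes of chromosome structure lay higher on all mutant arrays, and Cenpa (0.63 ± 0.18) and Cdc20 (0.65 ± 0.22) completed the 5. Ube2c had 3.66, 4.07 and 3.46 in Wnt4-null ovaries, against 6.42, 10.9 and 9.47 in wild-type ovaries (log2 change -1.22 ± 0.21 SE, adjusted p = 7.53e-05). Espl1 had 0.605, 0.890 and 1.04 in Wnt4-null ovaries, against 1.89, 1.68 and 2.08 in wild-type ovaries (log2 change -1.18 ± 0.21 SE, adjusted p = 0.000117). Prc1 had 1.32, 1.60 and 1.56 in Wnt4-null ovaries, against 2.08, 3.90 and 3.31 in wild-type ovaries (log2 change -1.01 ± 0.19 SE, adjusted p = 0.000217). In these genes every mutant array lay below every wild-type array. Ect2 (-1.37 ± 0.28), Kif4 (-1.34 ± 0.28), Ncapg (-0.97 ± 0.23), Bub1 (-1.13 ± 0.27), Birc5 (-0.64 ± 0.15), Mad2l1 (-0.67 ± 0.16) and Cks2 (-0.72 ± 0.19) were lower as well. Cdk1 (-0.06 ± 0.19) and Cdkn1b (-0.44 ± 0.36) did not pass the test.

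Of these 15 calls, 10 held whichever array was left out; Birc5 (adjusted p up to 0.0537) and Mad2l1 (0.0769) did not pass without the second wild-type array, Cdc20 (0.198) without the first, nor Cks2 (0.0721) and Cenpa (0.099) without the first Wnt4-null array. The median share of wild-type signal missing was 5.62% for the mitosis genes, 73.5% for the germ cell markers and 82.6% for the oocyte markers in Wnt4-null ovaries. Markers of other cell types had moved too. In Wnt4-null ovaries 4 of 5 Leydig cell, 6 of 10 stroma and 4 of 10 Sertoli cell markers were higher. Of the fetal supporting-cell markers 6 of 7 were lower. That list includes Wnt4, the gene knocked out here, and Foxl2, of which these ovaries carry a single intact allele. The part of these cells in the mitosis genes was not tested.

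Kit mutants and Wnt4-null ovaries of P0, both carriers of a single Foxl2 allele, were also compared directly. In KitWvWv ovaries 37 of 41 members were lower than in Wnt4-null ovaries and none higher, where 8.95% of all genes were lower and 14.9% higher, with a members' median of -1.33, against 0.20 for all genes; after quantile normalization it was -1.49, with 39 lower, and 45.9% of all called genes were higher, against 62.5% without that step. The smallest adjusted p were those of Ttk (log2 change -2.23 ± 0.20 SE, adjusted p = 4.58e-10), Birc5 (-1.58 ± 0.15), Kif11 (-2.25 ± 0.22), Racgap1, which activates GTP hydrolysis at the central spindle (-2.16 ± 0.22), Ccna2 (-1.69 ± 0.17), Cdk1 (-1.76 ± 0.19), Ube2c (-1.97 ± 0.21), Prc1 (-1.66 ± 0.19), Melk (-2.69 ± 0.31) and Ccnb2 (-1.80 ± 0.21). Kif11 had 0.453, 0.635 and 0.477 in KitWvWv ovaries, against 2.79, 2.56 and 2.16 in Wnt4-null ovaries, and Racgap1 had 0.149, 0.210 and 0.305 in KitWvWv ovaries, against 1.02, 0.991 and 0.934 in Wnt4-null ovaries. Neither gene overlapped between the mutants. Top2a (-1.62 ± 0.21), Mki67 (-1.22 ± 0.18) and Cks2 (-1.19 ± 0.19) were lower here as well, and Cdkn1b was higher (log2 change 1.16 ± 0.36 SE, adjusted p = 0.0179). Foxm1, Plk1, Kif22 and Pttg1 were not called (-0.73, -0.94, -0.41 and -0.18). Germ cell markers, too, were lower in KitWvWv than in Wnt4-null ovaries (8 of 11), as were 5 of 10 stroma and 4 of 5 Leydig cell markers. Of the fetal supporting-cell markers 6 of 7 were higher, in a list that includes Wnt4, the gene knocked out in the Wnt4-null ovaries. The calls of Aurkb and Kif2c did not hold without the second Wnt4-null array (adjusted p = 0.0538) and the first Kit mutant array (0.132).

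At E15, with 2 arrays per group, no mitosis gene was called in Wnt4-null against Wnt4+/- ovaries, where 2.10% of all genes were called; 10 members had an unadjusted p under 0.05, as did 12.6% of all genes. The median change was 0.37, against 0.04 for all genes, and 38 of 41 changes were above 0. Top2a had 4.98 and 5.50 in Wnt4-null ovaries, against 3.31 and 3.88 in controls (log2 change 0.54 ± 0.26 SE, adjusted p = 0.383), and Mki67 had 13.1 and 10.2, against 8.45 and 9.02 (log2 change 0.41 ± 0.22 SE, adjusted p = 0.452). The arrays did not overlap in either gene, but the changes did not pass the test. Changes were 0.54 for Cdk1, 0.01 for Birc5, 0.57 for Cks2 and -0.16 for Cdkn1b.

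Loss of Foxl2 left no called change in any mitosis gene, at any stage or in any background tested. At E13, 0 of 41 members were called by limma in Foxl2-/- against Foxl2+/- ovaries (1.36% of all genes), at E16 0 in Foxl2-/- against wild-type ovaries (0.660%) and 0 in Foxl2+/- against wild-type ovaries (0.00550%), and at P0 0 in Foxl2-/- against wild-type ovaries (0.825%). In KitWvWv ovaries 0 were called on loss of Foxl2 (1.13%), and in Wnt4-null ovaries 0 (0.924%). Unadjusted p under 0.05 were counted in 0, 5, 4, 3, 6 and 2 members in these 6 comparisons, in that order, and in 15.7%, 7.33%, 5.61%, 8.16%, 11.2% and 10.6% of all genes. At E16 the third Foxl2-/- and the first Foxl2+/- array had both the highest erythroid sums (40.8 and 41.3) and the highest mitosis levels (0.29 each) of that stage, and the part of blood in the E16 values was not tested. The members' medians were -0.09, 0.20, 0.16, -0.04, 0.19 and 0.15, and the widest single change among them was that of Melk in KitWvWv Foxl2-/- against KitWvWv ovaries (log2 change 0.87 ± 0.31 SE, adjusted p = 0.234). Top2a changed by -0.21, 0.20, 0.18, 0.47, 0.13 and 0.11 in the same order, and Mki67 by -0.32, 0.29, 0.27, 0.39, 0.20 and 0.20. Cdk1 changed by 0.21, -0.04, -0.16, -0.12, 0.09 and 0.33, Birc5 by 0.03, 0.25, 0.25, -0.19, 0.20 and -0.06, and Cks2 by 0.23, 0.13, 0.38, -0.07, -0.25 and -0.19. Without the second KitWvWv array 2 members were called in KitWvWv Foxl2-/- against KitWvWv ovaries. None of these changes of mitosis genes passed the test, which does not show that the genes were alike. Cdkn1b was lower in Wnt4-/-Foxl2-/- than in Wnt4-null ovaries (log2 change -1.44 ± 0.36 SE, adjusted p = 0.0441), and its changes of -0.30, -0.81, -0.27, -0.96 and -0.22 in the other 5 comparisons did not pass the test. Ube2c, for example, had 8.01, 5.07 and 6.93 in Foxl2-/- ovaries of P0, against 6.42, 10.9 and 9.47 in wild-type ovaries, and 0.705, 0.947 and 1.13 in KitWvWv Foxl2-/- ovaries, against 0.959, 0.896 and 0.985 in KitWvWv ovaries. The groups overlapped in both pairs. Whether the effect of Foxl2 loss itself differed was tested in both backgrounds: between KitWvWv and Kit-intact ovaries no member was called (0.0220% of all genes; 2 members and 6.2% of all genes at an unadjusted p under 0.05), and between Wnt4-null and Wnt4-intact ovaries none (0.379%; 0 members and 8.05%). In the test with KitWvWv the differences were -0.18 for Mki67, -0.34 for Top2a, 0.21 for Cdk1, 0.39 for Birc5, -0.19 for Cks2 and 0.74 for Cdkn1b. In the test with Wnt4 they were -0.19 for Mki67, -0.36 for Top2a, 0.45 for Cdk1, 0.13 for Birc5, -0.13 for Cks2 and -0.48 for Cdkn1b, and none of these differences passed. The 2 tests share the Foxl2-/- and wild-type arrays of P0, and their Kit and Wnt4 mutant controls were Foxl2+/-, where the Kit- and Wnt4-intact controls were wild type.

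Genes that work beside the 41 were read from 3 further lists, of 44 other mitosis genes, 28 genes of DNA replication and 15 cell cycle inhibitors. In KitWvWv against wild-type ovaries, where 13.3% of all genes fell and 17.3% rose, 29 of the 44 other mitosis genes fell and 1 rose, with a median of -1.14, led by Dlgap5, a spindle protein gene (log2 change -3.22 ± 0.28 SE, adjusted p = 1.07e-10), Gtse1 (-3.22 ± 0.30) and Sgo1, shugoshin, the guardian of centromeric cohesion (-1.65 ± 0.16). Of the 28 replication genes 13 fell and 1 rose in the same comparison, with a median of -0.46, led by Uhrf1 (log2 change -1.78 ± 0.22 SE, adjusted p = 1.38e-07), Fen1, the flap endonuclease (-1.08 ± 0.15), and Rfc4, of the clamp loader (-1.18 ± 0.19). Their median loss of signal was 26.2%, and that of the other mitosis genes 55.2%, beside the 65.7% of the 41 genes. Among the inhibitors Rb1, the retinoblastoma gene (-1.999 ± 0.29), and Ccng1 (-0.67 ± 0.17) fell, and Rbl1, a relative of Rb1 (1.04 ± 0.26), rose.

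With stage the replication genes fell as well. In the ovary 15 of 28 fell at E16 relative to E13 (3.93% of all genes), led by the helicase subunit gene Mcm7 (-1.17 ± 0.17), and none rose (5.07%). In the testis 13 fell at P0 relative to E13 (13.8%), led by Mcm2 (-1.91 ± 0.26), and none rose (9.07%). Other mitosis genes fell in 7 cases of 44 in the ovary at E16, among them Cdca3 (-1.21 ± 0.22), and in 18 in the testis at P0, among them Spc25 of the kinetochore (-1.23 ± 0.18). At P0 relative to E16 in the ovary, where 10.2% of all genes rose and 20.6% fell, 4 of the 28 replication genes rose and 6 fell. Of the 44 other mitosis genes 10 rose there, among them Cdca5, or sororin (1.81 ± 0.26), and 11 fell, among them Aspm, of the spindle poles (-1.59 ± 0.18), and Sgo2a (-1.25 ± 0.18). Of the inhibitors, Cdkn2c, a blocker of CDK4 and CDK6, rose in the testis at P0 (log2 change 1.37 ± 0.19 SE, adjusted p = 2.71e-06), and Cdkn1a, or p21, was lower in testes than in ovaries at E13 (log2 change -2.21 ± 0.32 SE, adjusted p = 5.9e-06). In Wnt4-null against wild-type ovaries of P0, where 7.07% of all genes were higher and 9.86% lower, 8 of the 44 other mitosis genes were higher and 6 lower, and 4 of the 28 replication genes were higher and 3 lower.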

How the data were processed

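Each array (Affymetrix MOE430 v.2) held RNA of 1 mouse, amplified in a single round before labelling. The authors summarised the deposited intensity values with the plier program in R and scaled them to a global mean; the submitters' processing notes also name GCOS 1.3 without a role, and a genome build is not given in the sources used here. From these values, 64 of 45071 probe sets were left out as controls. Intensities were divided by the common array mean, 0.01 was added, and log2 values of 45007 probe sets on 43 arrays in 15 groups were fitted together with limma 3.58.1 (R 4.3.3; eBayes with trend, 28 residual degrees of freedom). P-values were adjusted by Benjamini-Hochberg over all probe sets in each of 19 comparisons, and a call needs an adjusted p under 0.05. The count in percent of all genes uses 18184 genes, each by its brightest probe set. Symbols came from the platform annotation, which gives 1 symbol for 34927 probe sets, several for 930 and none for 9150. No value was missing or at 0.

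Fold changes are log2 of (signal + 0.01), which understates changes of dim genes. The study's own Focus program was not used. Every member was accounted for. In each comparison the text names up to 10 called members per direction with the smallest adjusted p, and always Mki67, Top2a, Cdk1, Ccnb1, Birc5, Cks2 and Cdkn1b where measured, and up to 3 called genes of each further list. The members and lists were chosen with earlier results of these data known. Same-numbered arrays were checked for pairing: only for Foxl2-/- against control ovaries of E13 did every pair correlate at over 0.1 (r 0.132 to 0.158 over 3 pairs), the level taken to show pairing, and a block changed no call there. The fit was tested on simulated data. Alternatives were 2 other pseudocounts, quantile normalization, a filter on low values (all 41 genes passed), the mean over a gene's probe sets, eBayes without trend, a fit on the compared arrays alone, the replicate number as a block, and leaving out each array.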

Additional observations from a re-analysis of the deposited data

Results flagged for a closer look

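For 8 mitosis genes the change from E13 to P0 differed between testis and ovary by a test of the difference itself (limma, adjusted over all probe sets; stage change in testis minus that in ovary). It was negative for Ect2 (-2.04 ± 0.39 SE, adjusted p = 0.000718), Prc1 (-1.71 ± 0.27, 4.77e-05), Ube2c (-1.70 ± 0.30, 0.000257), Espl1 (-1.51 ± 0.30, 0.000972), Birc5 (-1.35 ± 0.22, 6.43e-05) and Cks2 (-1.25 ± 0.27, 0.00221). It was positive for Cenpa (1.03 ± 0.26, 0.00956) and Top2a (1.002 ± 0.30, 0.0336). By the study's methods the P0 testes came from Wnt4-null mice. By the labels the E13 ovaries were Foxl2+/- and the P0 ovaries wild type. Sex and these genotypes cannot be told apart in these values.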

How the results depend on the processing

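No called change of a mitosis gene turned its direction under any alternative run: of 2820 recomputations of 198 called changes, 2565 kept call and direction and 255 lost the call. The count of called genes at E16 against E13 in the ovary was 18, but 10 with the compared arrays alone and 9 with the replicate block on the same arrays. Averaging all probe sets of a gene gave 1 call in Wnt4-null ovaries of E15, where none was made, and a median loss in KitWvWv ovaries of 50.8% in place of 65.7%. The cause of these differences was not tested. With the replicate block, which pairs arrays that share only a number in all but 1 comparison, counts were 32 for the stage change in testis, 17 for both ovary changes to P0, 27 for KitWvWv against wild-type, 34 for KitWvWv against Wnt4-null and 12 for Wnt4-null against wild-type ovaries, 5 and 17 for the sexes at E13 and P0, and 10 for the difference of stage changes.

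Leaving out single arrays gave 20 to 25 calls for the stage change in testis, and 8 to 19, 9 to 14 and 15 to 20 for the ovary from E13 to E16, E16 to P0 and E13 to P0. It gave 2 to 6 and 17 to 19 for the sexes at E13 and P0, 30 to 34 for KitWvWv and 12 to 16 for Wnt4-null against wild-type ovaries, 36 to 38 for KitWvWv against Wnt4-null ovaries, and 7 to 11 for the difference of stage changes. Foxl2 loss in KitWvWv ovaries gave 0 to 2, the other Foxl2 comparisons and Wnt4 loss at E15 gave 0 to 0, and the median loss was 61.6% to 68.3%. With 2 or 3 arrays a group, small changes may go uncalled.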
